A study of Mus musculus with 221 samples.

Results

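The 9 genes described here encode proteins of the endothelial cell junction and surface: Cdh5, Pecam1, Esam, Emcn, Cldn5, Cd34, Mcam, Icam2 and Egfl7. They were chosen by symbol, and their 59 annotated transcripts, of 278369 transcripts in the deposited table, were summed to 9 of 78317 genes. Their levels and isoforms were followed in single cells of the mouse embryo on the way from hemogenic endothelium (HE), the endothelium that gives rise to blood cells, to early hematopoietic progenitors. Cells had been sorted into plates from embryos carrying the GFI1-GFP and RUNX1B-RFP reporters, and their Smart-seq2 cDNA was sequenced on a nanopore instrument.

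The cells fall into 9 clusters and 3 trajectories, of which 208 of 221 cells passed the limit of 17595 estimated counts. HE AGM came from the aorta-gonad-mesonephros region and consists of an early cluster, c3 (29 cells), and a late cluster, c4 (20 cells). It was followed by c5 (21 cells), which the labels call HE-Hb and whose tissue they give only as mouse embryo. HE YSA and HE YSP came from the yolk sac. HE YSA consists of a1 (early, 23 cells) and a2 (late, 29 cells), and HE YSP of b2 (early, 25 cells) and b3 (late, 24 cells). The progenitor clusters p1 (17 cells, LMP skewed, for lymphomyeloid) and p2 (20 cells, EMP skewed, for erythromyeloid) were set against HE YSA and HE YSP, respectively. The AGM gate was RUNX1+ KIT- CDH5+ GFI1+/- CD41- CD45- at E9.5 and E10.5, and the yolk sac gate was RUNX1+ KIT+ GFI1+/- CD31+ CD41- CD45- at E9.0, E9.5 and E10.5. Both gates thus required a protein of one of the 9 genes on the cell, CDH5 in the AGM and CD31, the product of Pecam1, in the yolk sac.

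Endothelial cells are held together by adherens junctions, built by the cadherin CDH5 and linked to actin through catenins, and by tight junctions, of which CLDN5 is the main endothelial claudin. PECAM1, ESAM, ICAM2 and MCAM are adhesion molecules of the immunoglobulin family at the cell border, EMCN and CD34 are heavily glycosylated sialomucins of the cell surface, and EGFL7 is a secreted protein of the endothelial matrix. During the endothelial to hematopoietic transition a flat HE cell loses its junctions, rounds up and leaves the vessel wall, while CD34 is also known as a surface marker of early blood progenitors.

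Each cluster counts as 1 sample, because no embryo is named, so no difference below has a replicate check and no test was made. Values are CPM, the gene's counts scaled to an equal total of estimated counts in each group, from the summed cells of a cluster, with 95% exact intervals in square brackets that cover counting error only, and differences are log2 ratios of CPM. A gene was called lower or higher at a difference of at least 2-fold. The clusters had been defined by the authors from short reads of the same cDNA, so that differences between clusters describe them and are no independent evidence. Median totals per cell were 59311 counts in HE AGM and 59726 in c5, against 30858 to 36709.5 in the yolk sac populations. The AGM and yolk sac cells come from different cDNA projects, with 1 exception among the cells used, so tissue and cDNA project cannot be told apart. Of the yolk sac cells, 3 in a1 and a2 carry an AGM name or project in their library names. Without them, p1 against HE YSA still counted 4 lower members.

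Most of the 9 genes were lower in the progenitor clusters than in the HE they were set against. In c5, 8 of 9 genes were lower than in HE AGM, where 16.7% of 8500 genes tested were. In p2, 8 of 9 were lower than in HE YSP, beside 18% of all genes, and in p1, 4 of 9 were lower than in HE YSA, beside 19.2%. No member was higher in any of the 3 comparisons, in which 5.64%, 10.2% and 10.7% of all genes were higher in c5, p1 and p2. The median log2 ratio of the members was -2.56 in c5, -0.86 in p1 and -4.09 in p2, while that of all genes was -0.09, -0.02 and 0.01. In p1 and p2 the median was the value of Mcam itself, which rests on 4 counts and 1 count, and over the other 8 genes the medians were -2.55, -1.67 and -3.86. All 9 members passed the minimum of 10 CPM over all cells used. Mcam passed it through the HE cells, with under 10 CPM in each progenitor cluster, which partly fixes its call. Cd34 stayed within 2-fold in all 3 trajectories, and p1 also held Esam, Emcn, Mcam and Egfl7 within 2-fold of HE YSA. Cdh5, Pecam1, Cldn5 and Icam2 were lower in each of the 3 trajectories and in each of the 3 runs taken alone. The sorts named in the libraries differed: 12 of 17 cells of p1 carried a yolk sac Runx1 sort and only 3 of 52 of HE YSA, and among cells of the Gfi1 sort alone the median of the members in p1 was -1.23.

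In the annotation GENCODE M21 (GRCm38), Cdh5 lies on the + strand at chr8:104101625-104144511, Pecam1 on the - strand at chr11:106654217-106750628 and Icam2 on the - strand at chr11:106377656-106388075. On the + strand lie Esam at chr9:37528078-37538319, Mcam at chr9:44134469-44142727, Emcn at chr3:137341067-137432185, Cldn5 at chr16:18776847-18778262, Cd34 at chr1:194938819-194961279 and Egfl7 at chr2:26580014-26593120. The deposited table used another GENCODE release, and 56 of the 59 transcripts matched this annotation by identifier and length.

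**Figure D1:**
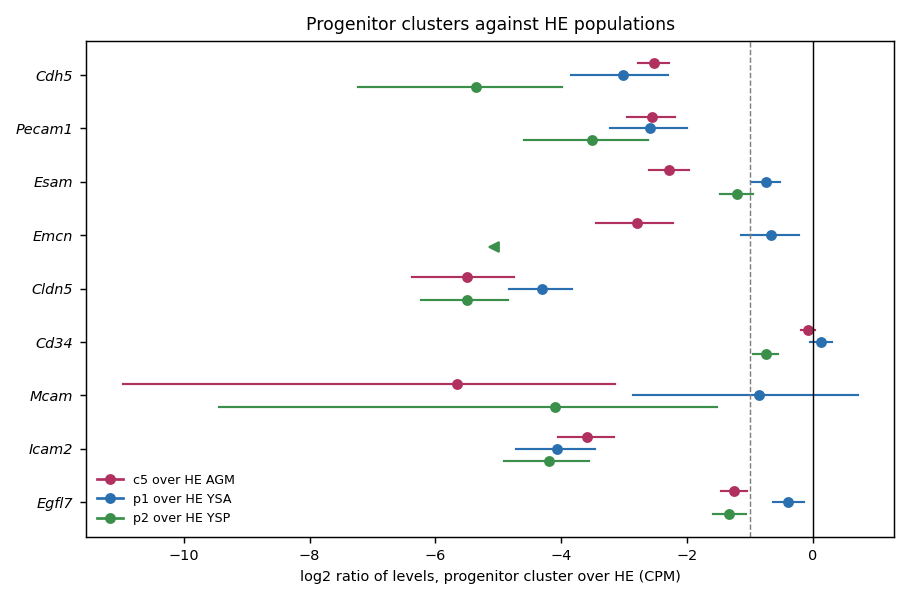
Log2 ratio of progenitor over HE CPM for the 9 genes in the 3 trajectories (c5 over HE AGM, p1 over HE YSA, p2 over HE YSP). Points are ratios of summed counts, bars are 95% intervals of counting error, the arrow marks the bound for Emcn in p2, and the dashed line is a 2-fold decrease. Cldn5 and Icam2 lie far below the line in each trajectory, while Cd34 lies above it in each.

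Cdh5, the adherens junction cadherin, was at 753 CPM [714 to 792] in c3, 355 [324 to 387] in c4 and 101 [85.9 to 119] in c5. Single cells of HE AGM ranged from 76.9 to 2052 CPM, with a median of 519.8, and those of c5 from 0 to 427, with a median of 54.1. All 21 cells of c5 thus lay below the HE AGM median, although the ranges overlapped. The log2 ratio was -2.53 [-2.78 to -2.29] and lay between -2.60 and -2.41 in the 3 nanopore runs, each of which held cells of every cluster. Among AGM cells of plate group GL_SC_3, on which all of c5 lay, it was -2.12.

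In the yolk sac arterial trajectory Cdh5 was at 278 CPM [244 to 316] in a1, 135 [114 to 159] in a2 and 24.4 [13.9 to 39.6] in p1, a log2 ratio of -3.03 [-3.85 to -2.31]. Of p1's Cdh5 counts, 93.8% came from p1 replicate 16, a cell at 346 CPM, and without it the log2 ratio was -6.93. In the plexus trajectory Cdh5 was at 333 CPM [295 to 374] in b2, 109.6 [88.2 to 135] in b3 and 5.46 [1.49 to 14] in p2, and the log2 ratio was -5.35 [-7.24 to -3.98]. A count of at least 1 was seen in 15 of 21 cells of c5, 2 of 17 of p1 and 3 of 20 of p2. At full depth Cdh5 was thus read in most cells of c5 and in few cells of both yolk sac progenitor clusters. Median totals were 59726 in c5, 30858 in p1 and 36709.5 in p2, and only the AGM gate required CDH5. The part of depth and gate in this difference was not tested.

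Cldn5, the tight junction claudin, was far lower in the progenitors of each trajectory. It was at 585 CPM [551 to 619.9] in c3, 189 [167 to 213] in c4 and 9.27 [5.07 to 15.6] in c5, a 45.2-fold lower level in c5 than in HE AGM (log2 ratio -5.50 [-6.37 to -4.75]). Single cells had 0 to 1634 CPM in HE AGM, with a median of 389, against 0 to 54.1 in c5, with a median of 0. The yolk sac HE held more: 1638 CPM [1553 to 1727] in a1 and 2008 [1914 to 2106] in b2, with single cells up to 5177 and 7834. The late clusters stood at 599 [554 to 647] in a2 and 302 [266 to 342] in b3, and the progenitors at 53.3 [37.1 to 74.1] in p1 and 25.9 [15.6 to 40.5] in p2. The log2 ratios were -4.31 [-4.84 to -3.83] for p1 and -5.50 [-6.23 to -4.85] for p2. In p2, 68.4% of the counts came from p2 replicate 14 at 611 CPM, and the log2 ratio without it was -7.12. Cells with at least 1 count numbered 6 of 21 in c5, 4 of 17 in p1 and 3 of 20 in p2, against 48 of 52 in HE YSA.

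Icam2, an adhesion molecule that also binds leukocyte integrins, was low in all 3 progenitor clusters to a similar degree. Its levels were 402 CPM [375 to 432] in c3, 297 [269 to 327] in c4 and 29.8 [21.7 to 39.9] in c5. They were 845 [784 to 909] in a1, 379 [343 to 418] in a2 and 35 [22.2 to 52.6] in p1, and 813 [754 to 876] in b2, 175 [148 to 207] in b3 and 27.3 [16.7 to 42.2] in p2. All progenitor cells, 21 of 21 in c5, 17 of 17 in p1 and 20 of 20 in p2, lay below the median of their HE cells. The log2 ratios were -3.59 [-4.05 to -3.16], -4.06 [-4.72 to -3.47] and -4.19 [-4.91 to -3.56], and those of single runs lay between -5.17 and -2.69. Among AGM cells of plate group GL_SC_3 the first was -3.24.

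Pecam1, which encodes CD31 and on whose protein the yolk sac cells were gated, stood at 246 CPM [229 to 263] in HE AGM, and the yolk sac HE held 228 [207 to 251] (HE YSA) and 156 [138 to 176] (HE YSP). In c5 it stood at 41.7 [32.1 to 53.4], in p1 at 38.1 [24.6 to 56.2] and in p2 at 13.7 [6.55 to 25.1]. The log2 ratios were -2.56 [-2.95 to -2.19], -2.58 [-3.23 to -2.00] and -3.52 [-4.59 to -2.61]. Every progenitor cell again lay below its HE median, and Pecam1 was at 0 in 8 of 21, 9 of 17 and 15 of 20 progenitor cells.

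Esam, an adhesion molecule of the tight junction, set c5 apart from p1 and p2, while the 3 HE were within 2-fold of each other. It was at 324 CPM [299 to 350.3] in c3, 234 [209 to 261] in c4 and 59.0 [47.3 to 72.5] in c5, with c5 cells between 0 and 140.4 and a median of 62.4. In p1, however, it was at 291 [251 to 335], with single cells from 0 to 779 and a median of 330.5, beside 489 [458 to 522] in HE YSA. In p2 it was at 206 [175 to 242], with a median of 220.4 over cells, beside 477 [445 to 512] in HE YSP. Esam was thus read in 15 of 17 cells of p1 and 19 of 20 of p2. The log2 ratio was -2.28 [-2.61 to -1.97] in the AGM, -0.75 [-0.98 to -0.52] for p1 and -1.21 [-1.47 to -0.96] for p2, whose interval includes the 2-fold limit. Between progenitors, Esam in c5 was lower than in p1 by a log2 ratio of -2.30 [-2.68 to -1.93] and than in p2 by -1.81 [-2.20 to -1.42].

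Emcn, the endothelial sialomucin endomucin, was read in p1 and not in p2. It was at 169 CPM [151 to 188] in c3, 41.0 [31.0 to 53.1] in c4 and 16.6 [10.7 to 24.4] in c5, and at 168 [141 to 198] in a1, 84.5 [68.0 to 104] in a2 and 76.2 [56.5 to 100.4] in p1. In the plexus trajectory it was at 183 [156 to 214] in b2, 91.4 [71.9 to 115] in b3 and 0 in p2. The 0 of 20 cells in p2 allow a level of up to 4.10 CPM at 3 counts, which makes Emcn at least 33.7-fold lower in p2 than in HE YSP. The log2 ratio was -2.80 [-3.45 to -2.22] for c5 and -0.67 [-1.14 to -0.22] for p1. Within p1 the counts came from 7 of 17 cells, the highest at 248 CPM, and in b3 from 8 of 24 cells, with 37.3% of them in 1 cell at 904 CPM. Emcn was 0 in 22 of 52 cells of HE YSA and 23 of 49 of HE YSP too, so that at this depth single cells without it were common before the progenitor stage. Only 6 of 18 alternative settings put Emcn of p1 lower by at least 2-fold.

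Cd34, the sialomucin shared by endothelium and blood progenitors, differed least of the 9 genes in each trajectory over the 3 runs together, though not in every single run. It was at 618 CPM [592 to 645] in HE AGM and 588 [549.5 to 628] in c5, with cells from 100.1 to 1674 and from 212 to 1006, and medians of 576 and 593. It was at 505 [473 to 538] in HE YSA and 554 [499 to 614] in p1, with medians of 463 and 462 over cells. In HE YSP it was at 595 [559 to 633] and in p2 at 354 [312 to 399], with medians of 559.7 and 350.2. Cd34 was read in all cells of c5 and p1 and in 19 of 20 of p2. The log2 ratios were -0.07 [-0.19 to 0.04], 0.14 [-0.04 to 0.31] and -0.75 [-0.95 to -0.55], of which the first 2 had intervals that included 0. The value for c5 took the other sign under 3 other scalings (0.02 to 0.08), and single runs gave 0.36, -0.68 and -0.03 for c5 and -0.88, 0.62 and 0.45 for p1.

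Egfl7, the secreted matrix protein, showed moderate differences. It was at 356 CPM [336 to 376] in HE AGM and 149.7 [131 to 171] in c5, at 349 [323 to 377] in HE YSA and 267 [229 to 309] in p1, and at 486 [453 to 521] in HE YSP and 194 [163 to 229] in p2. It was read in 21 of 21, 16 of 17 and 20 of 20 progenitor cells. The log2 ratios were -1.25 [-1.46 to -1.04], -0.39 [-0.64 to -0.15] and -1.33 [-1.59 to -1.07]. In run 2 alone the value for c5 was -0.55, within 2-fold.

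Mcam, the adhesion molecule CD146, was at the limit of detection. It was read at 33.3 CPM [27.4 to 40.1] in HE AGM, from 17 of 49 cells, at 11 [6.82 to 16.8] in HE YSA, from 8 of 52, and at 23.3 [16.6 to 31.9] in HE YSP, from 7 of 49. The progenitor clusters held 1 count in c5, 4 in p1 and 1 in p2, each from 1 cell. The log2 ratios of -5.65 [-10.97 to -3.15], -0.86 [-2.86 to 0.71] and -4.09 [-9.43 to -1.53] therefore rest on single cells. Without c5 replicate 20, p1 replicate 14 or p2 replicate 5, which held all of these counts, the cluster was at 0. The log2 ratio is then only bounded by the floor of 3 counts, at no more than -3.95 for c5, -1.14 for p1 and -2.43 for p2.

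**Figure D2:**
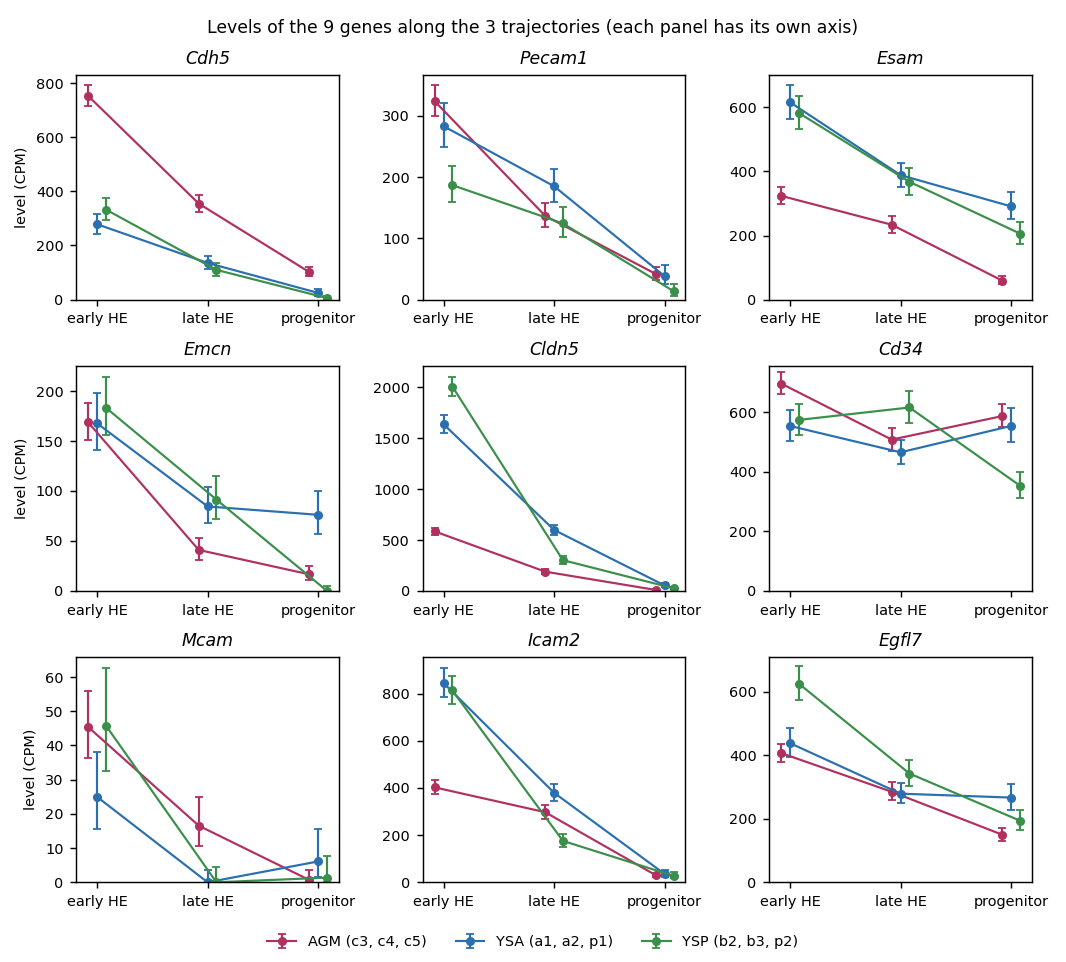
Level of each of the 9 genes in CPM of summed counts (linear axis from 0) in the early HE, late HE and progenitor cluster of the 3 trajectories. Bars are 95% Poisson intervals of counting error. In c3, c4 and c5, Cdh5 stands at 753, 355 and 101, whereas Cd34 stands at 697, 508 and 588.

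**Figure D3:**
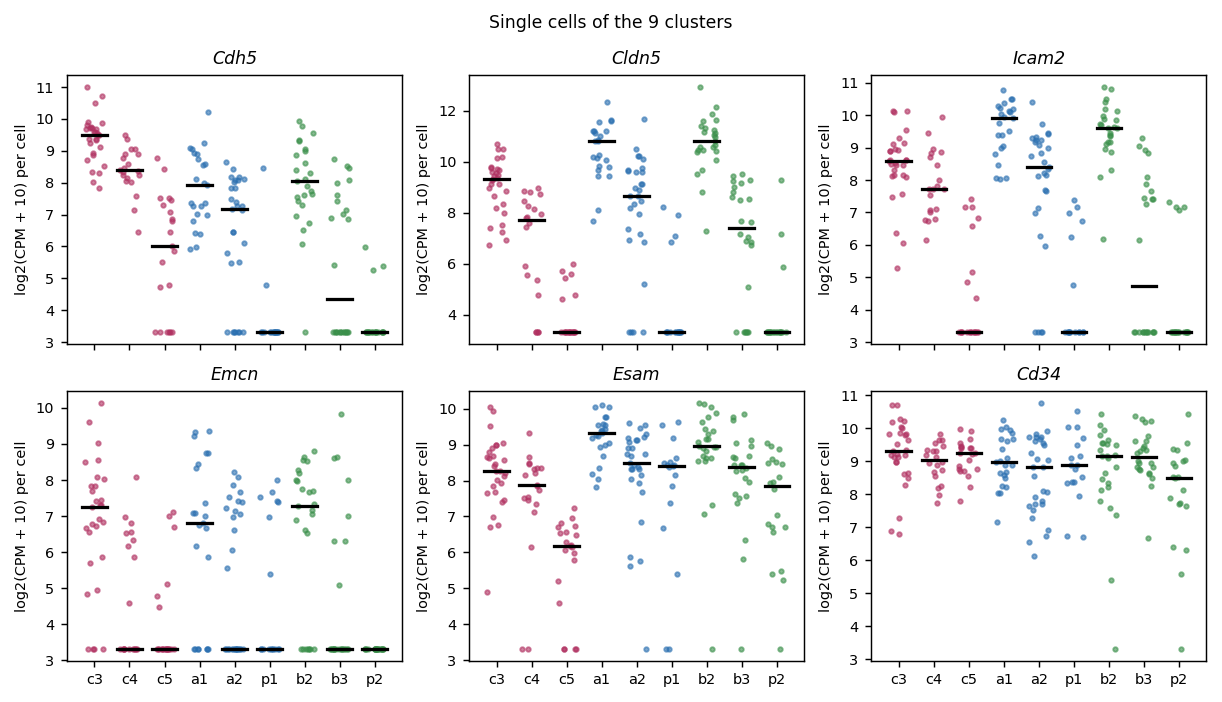
Level in single cells, log2(CPM + 10), for Cdh5, Cldn5, Icam2, Emcn, Esam and Cd34 in the 9 clusters, 1 point per cell. Cells of c5, p1 and p2 crowd at the bottom for Cldn5 and Icam2, Emcn is at 0 in all 20 cells of p2, and Cd34 is at similar heights throughout.

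Followed by step, the lower levels were spread over both stages of each trajectory. From early to late HE, 5 of 9 genes were lower in c4 than in c3 (Cdh5, Pecam1, Emcn, Cldn5 and Mcam), beside 13.1% of all genes. Lower in a2 than in a1 were 4 (Cdh5, Cldn5, Mcam and Icam2), beside 12.9%. Lower in b3 than in b2 were 5 (Cdh5, Emcn, Cldn5, Mcam and Icam2), beside 14%. Cdh5, Cldn5 and Mcam were thus lower in the late than in the early cluster of each HE, with log2 ratios of Cldn5 of -1.63 [-1.83 to -1.43], -1.45 [-1.59 to -1.31] and -2.73 [-2.93 to -2.54]. For Mcam the values in a2 and b3 are bounds, since both were at 0 counts. They were set against 21 counts from 8 of 23 cells in a1 and 39 counts from 7 of 25 cells in b2. Emcn lay next to the limit, at 50.4% of its early level in a2 and 49.8% in b3.

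From late HE to progenitor, 7 of 9 genes were lower in c5 than in c4, beside 14.2% of all genes, with Cd34 and Egfl7 left within 2-fold. In p1, 4 of 9 were lower than in a2 (Cdh5, Pecam1, Cldn5 and Icam2), beside 18.4%, and Mcam was higher on 4 counts against 0, where 11.8% of all genes were higher. In p2, 5 of the 8 genes with a fold were lower than in b3, beside 15.6%. These were the same 4 genes and Emcn. Pecam1 was within 2-fold from a1 to a2 (-0.61 [-0.89 to -0.34]) and from b2 to b3 (-0.59 [-0.96 to -0.22]), but lower at the next step, by -2.28 [-2.94 to -1.68] in p1 and by -3.19 [-4.29 to -2.25] in p2. In the AGM it was lower at both steps, by -1.25 [-1.49 to -1.01] and -1.71 [-2.15 to -1.29]. Icam2 was within 2-fold from c3 to c4 (-0.44 [-0.61 to -0.26]) and lower from c4 to c5 (-3.32 [-3.79 to -2.87]).

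The genes detected per cell gave the same order. After each cell was thinned to 15000 counts, the median number of the 9 genes with at least 1 count was 8 in c3, 6.5 in c4 and 4 in c5. It was 8, 7 and 4 in a1, a2 and p1, and 8, 5 and 3 in b2, b3 and p2. At least 7 of the genes were detected in 27 of 29, 10 of 20 and 0 of 21 cells of the AGM clusters in this order, in 23 of 23, 17 of 29 and 1 of 17 in the arterial and in 22 of 25, 6 of 24 and 0 of 20 in the plexus trajectory. Every progenitor cell retained at least 1 of the genes, and c5 and p2 cells at least 2. Without thinning, the medians were 5 in c5, 4 in p1 and 3.5 in p2.

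**Figure D4:**
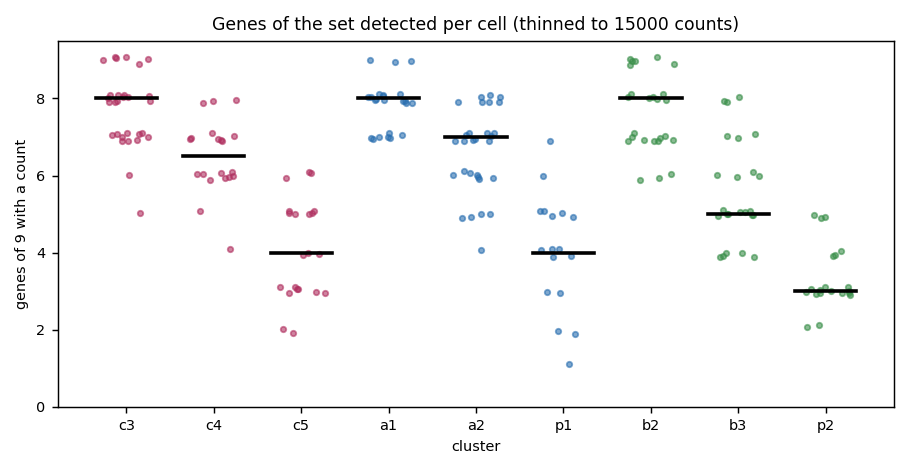
Number of the 9 genes with at least 1 count in each cell after thinning to 15000 counts, by cluster. Points are cells and the bar is the median, which is 8 in each early HE cluster and 4, 4 and 3 in c5, p1 and p2.

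The 3 HE populations also differed from each other. Cdh5 was higher in HE AGM than in HE YSA by a log2 ratio of 1.56 [1.40 to 1.73] and than in HE YSP by 1.39 [1.23 to 1.56]. Cldn5 was lower, by -1.33 [-1.43 to -1.23] and -1.48 [-1.58 to -1.38]. With Mcam (1.60 [0.92 to 2.34] against HE YSA), 3 of 9 genes were 2-fold apart between HE AGM and HE YSA, beside 40.8% of all genes, and 2 of 9 between HE AGM and HE YSP, beside 44%. Between HE YSP and HE YSA only Mcam was 2-fold apart (1.08 [0.28 to 1.92]), 1 of 9 beside 19.1%. The shares of members were below those of all genes, and the median of all genes stood at 0.19 and 0.24 in the 2 comparisons with the AGM. The Cdh5 gate applied to AGM cells only, and the part of gate, project and counted length in these differences was not tested. Only 3 of the HE YSA cells carried the yolk sac Runx1 sort that most HE YSP cells had, and against these 3 alone Cdh5 in HE AGM was at -0.15.

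Among the progenitor clusters, c5 kept more Cdh5 than p1 (2.06 [1.31 to 2.90]) or p2 (4.21 [2.83 to 6.11]). It had less Cldn5, by -2.52 [-3.53 to -1.59] and -1.48 [-2.59 to -0.41]. Only the AGM gate required CDH5, and the part of gate and cDNA project in these differences was not tested. Emcn in c5 was lower than in p1 by -2.20 [-2.96 to -1.48] and at least 4.04-fold higher than in p2. In all, 5 of 9 genes were 2-fold apart between c5 and p1, beside 46.9% of all genes, and 5 of 8 between c5 and p2, beside 47.1%. Between p2 and p1 they were 5 of 9, beside 24.9%, all lower in p2. Both counts against p1 include Mcam, on 1 count against 4. The last also includes Cdh5 on 4 counts against 16, of which 93.8% came from p1 replicate 16. It fell under some settings, to 1 after thinning, 2 in run 1, 3 in run 2 and 2 for the Runx1 sort. Icam2 and Pecam1 did not separate c5 from p1 (-0.23 [-0.99 to 0.56] and 0.13 [-0.56 to 0.86]).

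Partners of these proteins were mostly lower in the progenitors as well. Of 38 listed junction partners (catenins, tight and gap junction proteins, nectins and regulators), 25 passed the minimum level. Of these, 16, 16 and 14 were lower in c5, p1 and p2, beside 16.7%, 19.2% and 18% of all genes. Their medians were -1.70, -1.46 and -1.22. The gap junction gene Gja4 was lowest. It was at 366 CPM in HE AGM and 4.64 in c5, at 622 in HE YSA and 6.09 in p1, and at 120 in HE YSP and 1.37 in p2. Gja5, its arterial relative, was at 273 in HE AGM and 244 in HE YSA but at 5.98 in HE YSP, and at 0 in all 3 progenitor clusters. Tjp1, the scaffold ZO-1, was at 150, 88.7 and 40.7 in the 3 HE and at 17.2, 4.57 and 0 in c5, p1 and p2. Pdcd10, Rapgef1 and Rap1a, which act in signalling to the junction, had the highest mean ratios of the list. Rap1a was at 59.5 and 93.7 CPM in HE AGM and c5, 65.1 and 45.7 in HE YSA and p1, and 84.9 and 112 in HE YSP and p2, within 2-fold each time.

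Of 35 other endothelial surface genes, 27 passed, and 21, 19 and 19 were lower, beside 16.7%, 19.2% and 18% of all genes. Their medians were -1.89, -1.57 and -2.19. Procr, the protein C receptor, was lowest at 147, 563 and 295 CPM in the 3 HE against 15.2, 16.8 and 5.46 in the progenitors, followed by Ecscr and Cav1. Adgrl4 stood apart from the list at 61.9 CPM in HE YSA and 224 in p1, and at 24.9 in HE AGM and 50.3 in c5, but at 117 in HE YSP and 108 in p2. Next highest by mean ratio were Mmrn1 and Icam1, of which Icam1 had a log2 ratio of -1.89 in c5 and 0.89 in p2. Of 28 blood surface and identity genes, 20 passed. Higher in the progenitors were 13, 14 and 9 of them, beside 5.64%, 10.2% and 10.7% of all genes. Lower were 2, 1 and 1, beside 16.7%, 19.2% and 18%. The highest mean ratios were those of Rac2, Cd48 and Mpo. These rankings mix ratios with bounds. Cd48 had no fold in c5, so its mean is over p1 and p2 only, and Rac2 in c5 is a bound. The ratios of Gja5 and Cav1 are bounds in all 3 trajectories, and that of Tjp1 in p2. Mpo, the neutrophil peroxidase, was at 9.91 CPM in HE AGM and 323 in c5, at 11 in HE YSA and 206 in p1, and at 40.1 in HE YSP and 259 in p2. In the same pairs Rac2 was at 0 and 26.5, 1.05 and 36.6, and 4.19 and 49.2. Cd48 was at 0 in both HE AGM and c5, and at 4.20 and 146, and 7.18 and 104 in the yolk sac pairs. Lowest were Cd44, Runx1 and Kit. Cd44 was at 84.7 and 37.1, 115 and 39.6, and 44.3 and 45.1. Kit was at 166 and 191, 101 and 97.5, and 65.8 and 51.9 in the same pairs. Its RNA was thus higher in HE AGM and c5 than in the yolk sac populations, although the AGM gate was KIT- and the yolk sac gate KIT+. The reason was not tested. Runx1, the transcription factor needed for blood formation from endothelium, was at 72.7 in HE AGM and 33.8 in c5, at 22.6 in HE YSA and 16.8 in p1, and at 10.2 in HE YSP and 19.1 in p2. The minimum of 10 CPM was taken over all cells together, so a gene could pass through only the side where it was high. Rac2 and Cd48 passed through the progenitors, and Gja5 and Cav1 through the HE, which partly fixes their calls. Lists and members were chosen with results of these data known, so that their counts describe the clusters and add no independent evidence.

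The mean profile of the 9 genes over the 9 clusters was most like those of Plvap (Pearson r = 0.97 over 9 clusters, 3297 genes compared), Ldb2 (0.96), Ecscr (0.95) and Col4a1 (0.95), followed by Gm37376, Capn2, Ctnna1 and Eng. Plvap, a protein of endothelial fenestrae, was at 545, 262 and 30.5 CPM in c3, c4 and c5, at 617, 208 and 105 in a1, a2 and p1, and at 694, 191 and 50.5 in b2, b3 and p2. Ctnna1, the catenin that ties cadherins to actin, was at 176, 103 and 42.1 in the AGM clusters. Most opposite were Gm7666, Rpl14, Hspe1-ps5 and Gfi1b (r between -0.96 and -0.93), of which Gfi1b, a transcription factor of blood progenitors, was at 7.74, 20.9 and 123 in the AGM clusters, 7.14, 33.8 and 107 in the arterial and 4.70, 86.5 and 177 in the plexus trajectory. Among the members, the correlation with the mean of the other 8 was highest for Pecam1 (0.92) and lowest for Cd34 (0.54). The clusters share libraries and differ in depth, and these correlations are descriptions.

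The labelled cell types were checked against marker lists. All 12 endothelial identity markers were read in each HE, at a sum of 2322 CPM for HE AGM, 1785 for HE YSA and 2004 for HE YSP, and at lower sums in c5 (654), p1 (698) and p2 (535), where 1, 2 and 3 of them were at 0. These markers include Cdh5, Pecam1, Emcn and Egfl7, so the sums partly repeat the member levels above and are no separate check of them. Emcn is also among the 3 markers at 0 in p2. Macrophage markers summed to 67.6 to 238 CPM, with Lyz2 the highest of them and 5 or 6 of 9 markers at 0 in every population, and megakaryocyte markers to 14.2 to 87.3. In HE YSP, Lyz2 made 92.7 of 211 CPM, and in its cluster b2 the highest macrophage marker was Mrc1 at 108. Erythroid markers summed to 239 CPM in HE AGM, where 1 cell reached 11912, and to 12.3 to 53.0 elsewhere. Mesenchyme markers summed to 175 CPM in c5, of which Dlk1 made 172 with 8 of 10 markers at 0, and to 15.6 to 30.9 elsewhere. Yolk sac endoderm markers reached 10.2 CPM at most. The part of other cells in the values of the 9 genes was not tested.

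Isoforms were compared as shares of a gene's counts. Of 621 pairs of populations and isoforms, 30 differed by over 10 percentage points with intervals that did not overlap, and 29 of these set AGM against yolk sac populations. The counted transcripts were also longer in the AGM, at a mean of 1507 bases in HE AGM and 1333 in c5 against 1112 to 1169 in the yolk sac populations, and transcripts under 1000 bases took 55.4% and 59.8% of counts against 61.9% to 63.7%. The isoforms with larger yolk sac shares named below are short, and the part of length in them was not tested. Cldn5 has 1 transcript, and Cdh5 was read as the full-length Cdh5-201 for 95.4% of counts in HE AGM, with shares of 95.5% (HE YSA) and 98.9% (HE YSP) in the yolk sac.

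Emcn-204, an isoform of 723 bases, made 13% [9.82 to 16.8] of Emcn counts in HE AGM, whereas its share was 35.1% [28.9 to 41.6] for HE YSA, 36.8% [30.6 to 43.4] for HE YSP and 26% [14.6 to 40.3] for p1. Almost all remaining counts were Emcn-201, of 1357 bases. Only 5 of the 70 cells with both isoforms held them at equal counts (within 1%), so the reads told them apart. In place of exon 4 of Emcn-201, a coding exon of 114 bases at chr3:137391593-137391706 on the + strand (GRCm38), Emcn-204 carries a coding exon of 39 bases at chr3:137403984-137404022. Both are shown as the sequence that tells the isoforms apart, with the exon in capitals between 15 bases on either side in the transcript.
Emcn-201: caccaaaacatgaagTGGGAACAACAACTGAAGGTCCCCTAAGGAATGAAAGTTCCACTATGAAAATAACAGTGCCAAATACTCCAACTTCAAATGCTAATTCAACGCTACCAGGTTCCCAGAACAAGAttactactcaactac
Emcn-204: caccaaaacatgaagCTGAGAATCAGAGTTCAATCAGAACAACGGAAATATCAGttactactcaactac
Both lengths are multiples of 3 and neither exon holds a stop codon in frame.

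Cd34, with the deepest counts of the members in the progenitors, was read as 3 isoforms. The main isoform Cd34-201 made 58.3% [56.1 to 60.5] in HE AGM and 64.3% [61.1 to 67.5] in c5, and 55.3% to 62.1% in the yolk sac populations. Cd34-202, whose protein has a short cytoplasmic tail, made 21.4% [19.7 to 23.3] in HE AGM and 23.1% [20.4 to 26] in c5. It made 11.2% [9.21 to 13.3] in HE YSA, 12% [8.92 to 15.9] in p1, 13.6% [11.5 to 15.9] in HE YSP and 19.6% [15 to 25.1] in p2. Of the 151 cells with both isoforms, 72 held them at equal counts, as when a read that fits both is divided, so that part of these shares rests on divided reads. The 2 isoforms differ in an extra coding stretch at chr1:194959780-194959935 on the + strand (GRCm38), shown with the coding bases and the stop codon in capitals, beside the coding end of Cd34-201.
Cd34-202: acaggagaaaggctgGAGCTGGAACCTTGA
Cd34-201: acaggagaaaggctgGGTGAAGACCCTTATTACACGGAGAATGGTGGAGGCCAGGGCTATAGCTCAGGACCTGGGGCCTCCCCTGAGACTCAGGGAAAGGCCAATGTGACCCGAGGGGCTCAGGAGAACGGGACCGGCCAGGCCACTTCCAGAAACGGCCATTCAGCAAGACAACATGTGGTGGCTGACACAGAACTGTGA
Reading on into the extra stretch adds 12 coding bases and a stop, where Cd34-201 has 183 coding bases before its stop.

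Cd34-203, a transcript of 616 bases annotated as a target of nonsense-mediated decay, went the other way. It made 19.2% [17.6 to 21] in HE AGM and 12.5% [10.4 to 14.9] in c5, and 30.1% [27.3 to 33.2] in HE YSA, 27.7% [23.2 to 32.7] in p1, 23.6% [21 to 26.4] in HE YSP and 24.7% [19.6 to 30.4] in p2. Equal counts with Cd34-201 were seen in 3 of 167 cells. It lacks 77 bases of exon 3 (chr1:194949305-194949381, + strand, GRCm38), a length that is not a multiple of 3, shown in capitals.
Cd34-201: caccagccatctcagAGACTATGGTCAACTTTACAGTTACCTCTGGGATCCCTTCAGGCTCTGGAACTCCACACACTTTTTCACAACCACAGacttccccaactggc
In no trajectory did a Cd34 isoform differ by over 10 percentage points between the pooled HE clusters and the progenitors. Within HE YSP, however, Cd34-203 made 29.7% [25.6 to 33.9] in b2 and 17.8% [14.6 to 21.4] in b3. Cd34-201 made 56.9% [52.3 to 61.3] in b2 and 67.1% [62.9 to 71.3] in b3. In HE YSA, Cd34-201 made 52.9% [48.4 to 57.6] in a1 and 63.1% [58.7 to 67.4] in a2.

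Between pooled HE clusters and the progenitors of a trajectory, Icam2-204 was the only isoform that differed by over 10 percentage points with intervals apart. It made 15.7% [13.7 to 17.9] of Icam2 counts in HE AGM, from 27 of 49 cells, and 1 of 45 counts in c5, 2.22% [0.0562 to 11.8]. Those 45 counts came from 8 of 21 cells. It made 4.11% [3.04 to 5.47] in HE YSA and 5.02% [3.64 to 6.73] in HE YSP, while p1 and p2 had fewer than the 30 Icam2 counts required. Icam2-203, of 574 bases, made 17.5% [15.4 to 19.8] in HE AGM, against 33.4% [30.7 to 36.3] for HE YSA and 33.8% [30.6 to 37.2] for HE YSP, and Icam2-201 made 59.2% to 66.8% in all 4 populations. Within HE AGM, Icam2-201 made 70.8% [67.4 to 73.9] in c3 and 59.3% [54.4 to 64.1] in c4. Icam2-204 carries a coding stretch of 108 bases at chr11:106381317-106381424 on the - strand (GRCm38) that Icam2-201 lacks, shown in capitals. Bases of Icam2-201 that Icam2-204 lacks were not looked for, so this stretch need not be their only difference.
Icam2-204: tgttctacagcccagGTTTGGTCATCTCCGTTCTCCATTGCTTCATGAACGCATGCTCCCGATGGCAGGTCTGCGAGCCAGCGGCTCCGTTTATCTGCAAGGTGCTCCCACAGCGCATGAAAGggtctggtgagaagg
The isoforms were equal in few cells, 6 of 67 for Icam2-203 and Icam2-204 and 8 of 130 for Icam2-201 and Icam2-203.

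Esam-205, of 859 bases, made 3.99% [2.84 to 5.43] of Esam counts in HE AGM and 2.25% [0.273 to 7.88] in c5, and 9.76% [7.93 to 11.9] in HE YSA, 13.6% [9.09 to 19.3] in p1, 16% [13.6 to 18.8] in HE YSP and 9.27% [5.16 to 15.1] in p2. The rest was mostly Esam-201, at 95.7% in HE AGM and 83.7% in HE YSP. Pecam1-205, of 1020 bases, made 1.22% [0.588 to 2.24] in HE AGM but 10.1% [7.45 to 13.3] for HE YSA and 9.96% [6.61 to 14.3] for HE YSP.

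**Figure D5:**
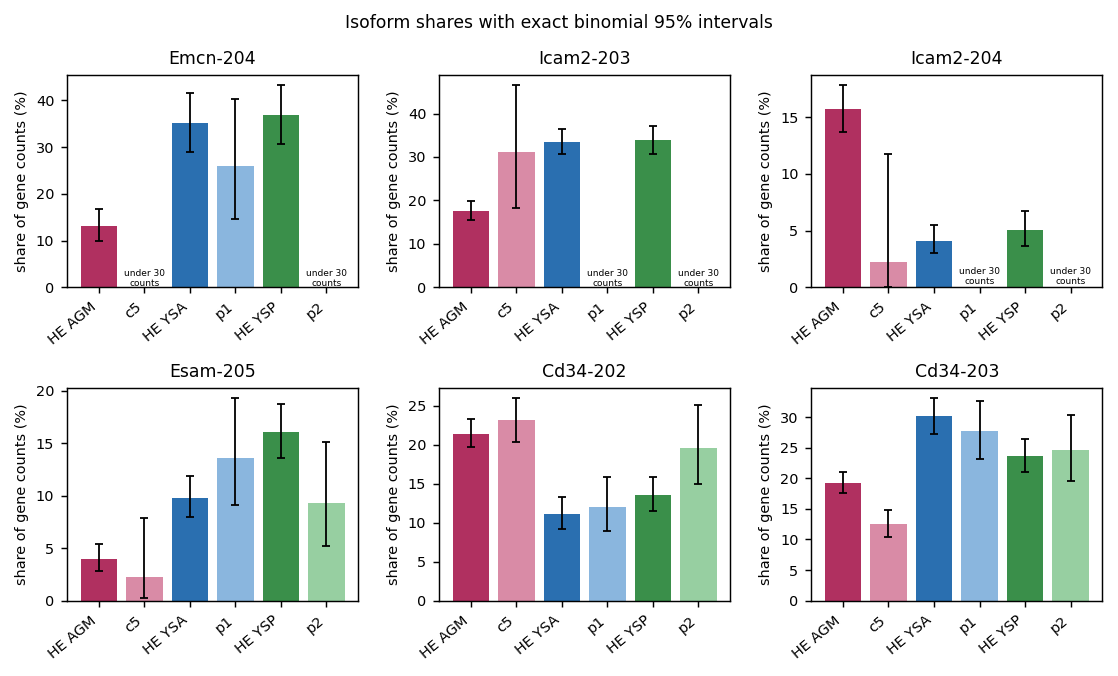
Share of the gene's counts, in percent, of Emcn-204, Icam2-203, Icam2-204, Esam-205, Cd34-202 and Cd34-203 in the HE and progenitor populations, with 95% binomial intervals of counting error. Populations with under 30 counts of the gene are marked and not plotted. Emcn-204 is at 13% in HE AGM and at 35.1% and 36.8% in the yolk sac HE, whereas Icam2-204 is highest in HE AGM at 15.7%.

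For other isoforms the reads did not decide between transcripts. Pecam1-202 and Pecam1-203 had equal counts in 142 of 144 cells, and each made 28.8% to 32.4% of Pecam1 in the populations with enough counts. Pecam1-203 lacks an exon of 57 coding bases (chr11:106671742-106671798, - strand, GRCm38) that lies in the part for the cytoplasmic tail and is shown in capitals because its presence could not be read from these shares.
Pecam1-204: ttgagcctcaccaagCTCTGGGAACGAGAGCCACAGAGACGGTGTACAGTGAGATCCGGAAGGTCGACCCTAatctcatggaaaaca
Pecam1-207 made 15.7% and 18.6% in HE AGM and c5 and 2.14% and 3.61% in both yolk sac HE, but had the same count as Pecam1-204 in 56 of 60 cells with both. Mcam-201 and Mcam-202 were equal in 22 of 22 cells, and Egfl7-202 and Egfl7-221 in 164 of 164. Shares of such pairs reflect reads divided between transcripts.

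Promoters, taken as 250 bases before to 50 after a RefSeq start (GRCm38.p6), were at hand for 5 of the genes in 7 windows. AGGAAG on either strand, a core letter pattern of ETS factors, was found in 4 windows of 3 genes (Emcn, Cd34 and Egfl7), beside 35.4% of 32851 promoters. GGGCGG, the core of SP1 sites, was found in 3 windows of 3 genes, beside 35.7%. The second ETS pattern searched, CGGAAG, was in none of the 7 windows, beside 16.9% of all promoters. For the blood factors, the same held for TGTGGT as the pattern of RUNX (16.8%), for AGATAA as that of GATA factors (11.2%) and for AATCAC as that of GFI1 (10.4%). Emcn, which was not read in p2, Cd34, which stayed within 2-fold, and Cldn5, which was far lower in each progenitor cluster, are shown with AGGAAG matches in capitals. All 3 are on the + strand, at chr3:137340828-137341127, chr1:194938571-194938870 and chr16:18776597-18776896.
Emcn: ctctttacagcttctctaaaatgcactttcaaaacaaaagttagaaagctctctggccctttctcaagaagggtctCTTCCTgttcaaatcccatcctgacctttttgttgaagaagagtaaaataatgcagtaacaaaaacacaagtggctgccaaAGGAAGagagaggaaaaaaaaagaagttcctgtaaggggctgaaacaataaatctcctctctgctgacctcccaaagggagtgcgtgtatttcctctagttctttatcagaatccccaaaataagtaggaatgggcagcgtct
Cd34: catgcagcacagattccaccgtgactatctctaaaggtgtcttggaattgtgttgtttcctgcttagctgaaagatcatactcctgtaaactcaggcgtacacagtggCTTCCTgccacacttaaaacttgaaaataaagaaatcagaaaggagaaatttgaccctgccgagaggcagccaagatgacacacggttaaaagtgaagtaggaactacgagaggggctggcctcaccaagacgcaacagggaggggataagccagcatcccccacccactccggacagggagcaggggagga
Cldn5: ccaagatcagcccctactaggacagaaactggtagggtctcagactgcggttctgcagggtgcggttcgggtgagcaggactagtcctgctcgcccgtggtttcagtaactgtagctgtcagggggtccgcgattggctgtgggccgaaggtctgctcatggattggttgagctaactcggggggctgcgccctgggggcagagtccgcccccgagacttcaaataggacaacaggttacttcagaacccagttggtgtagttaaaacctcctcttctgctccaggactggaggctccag
Emcn held 2 matches, starting at -174 and -93 from the start, Cd34 held 1 at -142, and the Cldn5 window held none. A match is a description of letters and not a site in use.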

How the data were processed

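Single cells had been sorted, amplified by Smart-seq2 and read on a nanopore instrument in 3 runs. The authors basecalled and trimmed the reads, removed chimeric reads, aligned them to GENCODE mouse transcripts of release 37 with Minimap2 (2.26 in the submitters' processing notes), keeping up to 10 alignments per read, and estimated counts per transcript with NanoCount. As deposited, these estimated counts are raw and often fractional, since reads that fit several transcripts are divided between them. The TPM values deposited by the authors equal the counts scaled to the same total in every cell, without a correction for length, and no value printed here comes from them. Their later normalization is not in these values.

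Cells were grouped by the labels. Cells under 17595 counts were left out (the median minus 1 scaled median absolute deviation), which left totals of 18131 to 125339. Transcripts were summed by symbol, and cells were summed by cluster. Ratios are of CPM from these sums, without a pseudocount. A group with no counts was set to 3 counts, which gives a bound, and no fold was given where both groups had 3 or fewer. Background is 8500 genes with at least 10 CPM over all cells used. Intervals are exact Poisson (levels) and exact binomial (shares and ratios) and cover counting error only, since reads carry no molecular identifiers and were amplified. Counts were rounded for intervals and thinning, and a cell held a gene where its sum reached 1 within a tolerance of 0.001. The ratio script was tested on simulated data. Doublets were not called in these sorted wells.

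The members and gene lists were chosen with earlier results of these data known. Named in addition to the members were the 3 lowest and 3 highest genes of each list by their mean ratio, and the 8 most and 4 least similar genes among those with at least 50 CPM. Software was Python 3.11.15, numpy 2.4.6, scipy 1.17.1 and pandas 2.3.3, and for scaling alternatives R 4.3.3, edgeR 4.0.16 and DESeq2 1.42.0, applied to rounded cluster sums with no test. Sequences came from GENCODE M21 transcripts and RefSeq promoters. The alternatives covered the cell limit, cell weights, depth, scaling, run, stage, plate, sort, HE cluster, fold limit and single cells.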

Additional observations from a re-analysis of the deposited data

Results flagged for a closer look

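Cd34 lay on opposite sides of 0 between late HE and progenitors, within 2-fold each time. The log2 ratio was 0.21 for c5 over c4 and 0.25 for p1 over a2, with intervals above 0, and -0.80 for p2 over b3, with an interval below 0. These intervals cover counting error only. The difference between trajectories was not tested. By run, the values were 0.55, -0.39 and 0.31 for c5 over c4, -0.83, 1.07 and 0.46 for p1 over a2, and -1.37, -0.20 and -0.67 for p2 over b3, so that the first 2 took both signs while the last kept its sign in each run.

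The 13 cells below the limit on the total, which the comparisons leave out, held 266 counts of the 9 genes in totals of 95 to 17493 per cell. That is 2708 CPM, above the 30.5 CPM that 3 counts would give in them.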

How the results depend on the processing

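Of 862 member ratios recomputed under other settings, 582 stayed within their counting interval and 80 took the other sign, 5 of them for ratios past the 2-fold limit. Of the 80, 6 were in c5 over HE AGM, 7 in p1 over HE YSA and 0 in p2 over HE YSP, and 22 were of Cd34. A further limit is that 42 of the 862 are bounds, since a group was at 0. Of the counts of lower members, 126 of 135 stayed within 1.5 times, and of the medians 28 of 47 stayed close. Of 348 isoform shares recomputed, 227 stayed within their counting interval and 121 did not. The intervals printed with the shares are thus narrower than their spread over runs, cell weights and HE clusters. Chosen after seeing the data was the median without Mcam, which was -1.67 in p1. No paired analysis was possible because no embryo is named and no test was made. Cdh5, Pecam1, Cldn5 and Icam2 stayed lower by at least 2-fold in each trajectory under every setting run. Scaling by edgeR's TMM factors raised every ratio of c5 over HE AGM by the same amount, for Cdh5 from -2.53 to -2.38 and for Cd34 from -0.07 to 0.08. The setting that kept only Runx1-sorted yolk sac cells rests on 3 HE YSA cells.

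The median of the members in c5 was -3.04 in run 3 alone, -2.14 on plate group GL_SC_3, -1.81 against the late HE cluster and -2.96 against the early one. In p1 it was -1.34 as a mean over cells, -1.56 after thinning, -1.80, -1.56 and -1.28 in runs 1, 2 and 3, -1.23 for the Gfi1 sort, -3.17 for the Runx1 sort, -0.42 against the late and -2.04 against the early cluster. In p2 it was -3.15 after thinning, -2.45 in run 2 alone, -2.91 for E9.0 and E9.5, -2.93 against the late and -4.90 against the early cluster. Lower members in p1 were 8 for the Runx1 sort, 7 against the early cluster and 7 at a 1.5-fold limit, and in p2 they were 5 for E9.0 and E9.5 and 5 against the late cluster. Lower members by step were 3 in c4 on plate group GL_SC_3, 2 in a2 at E10.5, 3 in b3 in run 3 and 8 in p2 over b3 at E10.5.

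Members 2-fold apart were 5 between HE AGM and HE YSA for the Runx1 sort. Between HE YSP and HE YSA they were 2 in run 1, 0 at E9.0 and E9.5 and 4 for the Runx1 sort. They were 3 between c5 and p2 in run 2 and 3 in run 3, and between p2 and p1 they were 1 after thinning, 2 in run 1, 3 in run 2 and 2 for the Runx1 sort. All genes lower by 2-fold were 7.81% in c5, 8.80% in p1 and 9.02% in p2 at a minimum of 50 CPM, and 9.25% in p1 and 8.85% in p2 with no minimum. The median genes detected per cell were 7 in c3 and 7.5 in a1 in run 1, 6 in a2 and 7 in b2 in run 2, and 6 in b3 in run 3, and 3.5 in p2 at full depth.

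Mcam, 2-fold apart between HE populations over all cells, changed sign between HE AGM and HE YSA (-0.86, Runx1 sort), and between HE YSP and HE YSA (-1.31 in run 3, at most -0.51 for the Gfi1 sort, -0.94 for the Runx1 sort). Cdh5 changed sign between HE AGM and HE YSA (-0.15, Runx1 sort). The cause was not tested. In p1, Cdh5 without p1 replicate 16 was -6.93, and in p2, without p2 replicate 20, -6.28, while Cldn5 without p2 replicate 14 was -7.12. The depth limits what can be read from Mcam, which had 1, 4 and 1 counts in c5, p1 and p2.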
